A study of Homo sapiens with 12 samples.

Results

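The proteasome is the protease that degrades ubiquitin-tagged proteins, including misfolded proteins pulled out of the endoplasmic reticulum (ER). Its barrel-shaped 20S core is built from an alpha ring that gates entry and a beta ring that carries the proteolytic sites, and the 19S cap binds ubiquitin chains, removes them and unfolds the substrate with its ring of ATPases. In cells exposed to interferon, the immune catalytic subunits PSMB8, PSMB9 and PSMB10 replace PSMB5, PSMB6 and PSMB7 in the core, and the PA28 activator made of PSME1 and PSME2 can take the place of the cap. The genes described here were 41 proteasome genes named by symbol: subunits of the core, the cap and the activators, together with chaperones that assemble them. Of these, 38 were matched on the array and PSMC5, PSMD7 and PSMD13 were not analysed here, so 38 of 22411 gene symbols tested are described.

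The arrays were run on total RNA of A549 cells, an established line from a human lung carcinoma, grown in RPMI 1640 with fetal bovine serum. Wild-type A549 cells (control) and A549 cells with TUSC3 knocked out by CRISPR (TUSC3 KO) were each exposed to DMSO, the vehicle, or to tunicamycin (TM, 3 ug/ml) for 16 h. TUSC3 is a subunit of the ER complex that attaches N-linked glycans, and TM blocks the first step of making those glycans and so causes ER stress. Each of the 4 groups held 3 arrays. The TUSC3 KO cells were 1 clone, so a difference between the genotypes and a difference between this clone and its parent line cannot be told apart. Values are log2 levels after robust multi-array averaging (RMA), and they are relative to the other RNA on the array, so an altered level per cell and an altered mixture of cells cannot be told apart.

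The TUSC3 signal was 7.16, 7.03 and 7.10 in control cells under DMSO and 5.51, 5.50 and 5.57 in TUSC3 KO cells under DMSO. All knockout arrays lay below all control arrays (log2 difference -1.57, limma adjusted p = 4.3e-08), and the same held under TM (log2 difference -1.34). Arrays of 1 group correlated at 0.996 to 0.999 over the 22411 gene symbols tested. All 8 epithelial markers were above the median feature (4.77) in every group, with array means of the list between 8.64 and 8.89. Of the markers of other cells, 3 of 7 for blood, 4 of 6 for fibroblasts and 3 of 6 for endothelium were above it, with array means between 4.28 and 4.71. Single markers moved with the groups. In TUSC3 KO cells the epithelial list had 2 genes higher and none lower under DMSO and 4 higher and 1 lower under TM, among them EPCAM (log2 difference 0.30 and 0.54), and with TM it had 1 higher and 3 lower in control cells and 2 higher and 3 lower in the knockout. Of the blood markers LYZ was higher in the knockout under TM (0.99) and CD14 fell with TM in the knockout (-0.34), of the fibroblast markers DCN rose with TM in the knockout (0.41), and no endothelial marker was called. The part of these markers in the results below was not tested.

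Promoter letters are shown for members that the results below turn on, which did not all move the same way. RefSeq promoters (build GRCh38.p14, 250 bases before to 50 bases after the gene start) were matched for 33 of the 38 genes. The antioxidant response element core TGACNNNGC, to which the transcription factor NFE2L1 and its relative NFE2L2 bind, was found on either strand in 10 of the 33 (30.3%), against 13.6% of all 27305 promoters searched. These were PSMB3, PSMB9, PSMC4, PSMD1, PSMD3, PSMD5, PSMD12, PSME1, PSME2 and PSME4. The following windows of 30 bases are given because PSMB3, PSMD1, PSMD3 and PSMD12 are members that fell with TM in both genotypes, and PSMC4 had the largest rise with TUSC3 KO under DMSO. The core was thus found in genes that fell with TM and in genes that rose, PSME1 and PSME2 included. Capitals mark the match, positions count from the gene start, and each window is read 5′ to 3′ on the strand of the gene.
PSMB3 (chr17:38752626-38752655, plus strand, match from -104): cgcctccgtttTGACTTTGCaaccaaacta
PSMD1 (chr2:231056887-231056916, plus strand, match from 39): ggcggcctgaggaggcgacTGACTGAGCag
PSMD3 (chr17:39980759-39980788, plus strand, match from -37): ttcccctttgtTGACTCGGCcatcggcctg
PSMD12 (chr17:67366724-67366753, minus strand, match from -165): gagacaaaaccTGACGCTGCaggctggagt
PSMC4 (chr19:39971181-39971210, plus strand, match from 27 on the opposite strand): cacagaggccgGCTTGGTCActatggagga

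The core of the interferon-stimulated response element, GAAA repeated after a gap of 2 bases, was found on either strand in 5 of the 33 promoters (15.2%), against 3.65% of all promoters. The genes were PSMA4, PSMB4, PSMB10, PSME1 and PSME2. The PSME1, PSME2 and PSMB10 windows are given because both PA28 genes rose with TM in both genotypes and PSMB10, an immune subunit, did not pass the test in any comparison.
PSME1 (chr14:24136189-24136218, plus strand, match from 5 on the opposite strand): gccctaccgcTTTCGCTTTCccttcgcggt
PSME2 (chr14:24146619-24146648, minus strand, match from -28): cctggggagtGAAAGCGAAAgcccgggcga
PSMB10 (chr16:67936852-67936881, minus strand, match from -21): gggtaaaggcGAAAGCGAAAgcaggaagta
The core of the element bound by ATF and CREB factors, TGACGT, was in 2 of the 33 (PSMB2 and PSMB8; 6.06%, against 8.32% of all promoters), and the ER stress response element (CCAAT, a gap of 9 bases, then CCACG) was in 0 of the 33, against 0.0806% of all. These are matches of letters in the reference sequence and were not measured in these cells.

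Under DMSO, the question was whether loss of TUSC3 alone came with other levels of proteasome RNA. Few members differed. PSMC4, PSMB8, PSMB2 and the activator genes PSME1, PSME2 and PSME3 were higher in TUSC3 KO cells, and PSMD14 was lower. This is 6 of 38 higher (15.8%) and 1 of 38 lower (2.63%) at a limma adjusted p under 0.05, against 6.58% higher and 6.11% lower, or 12.7% in either direction, over all 22411 genes tested. All members were brighter than the median feature. Among the 15589 genes that bright, refitted alone, 9.53% were higher and 8.75% lower, or 18.3% in either direction. The members called in either direction were near that share. All 38 differences lay between -0.26 and 0.27 on the log2 scale, with a median of 0.02 against 0.01 over all genes.

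**Figure D1:**
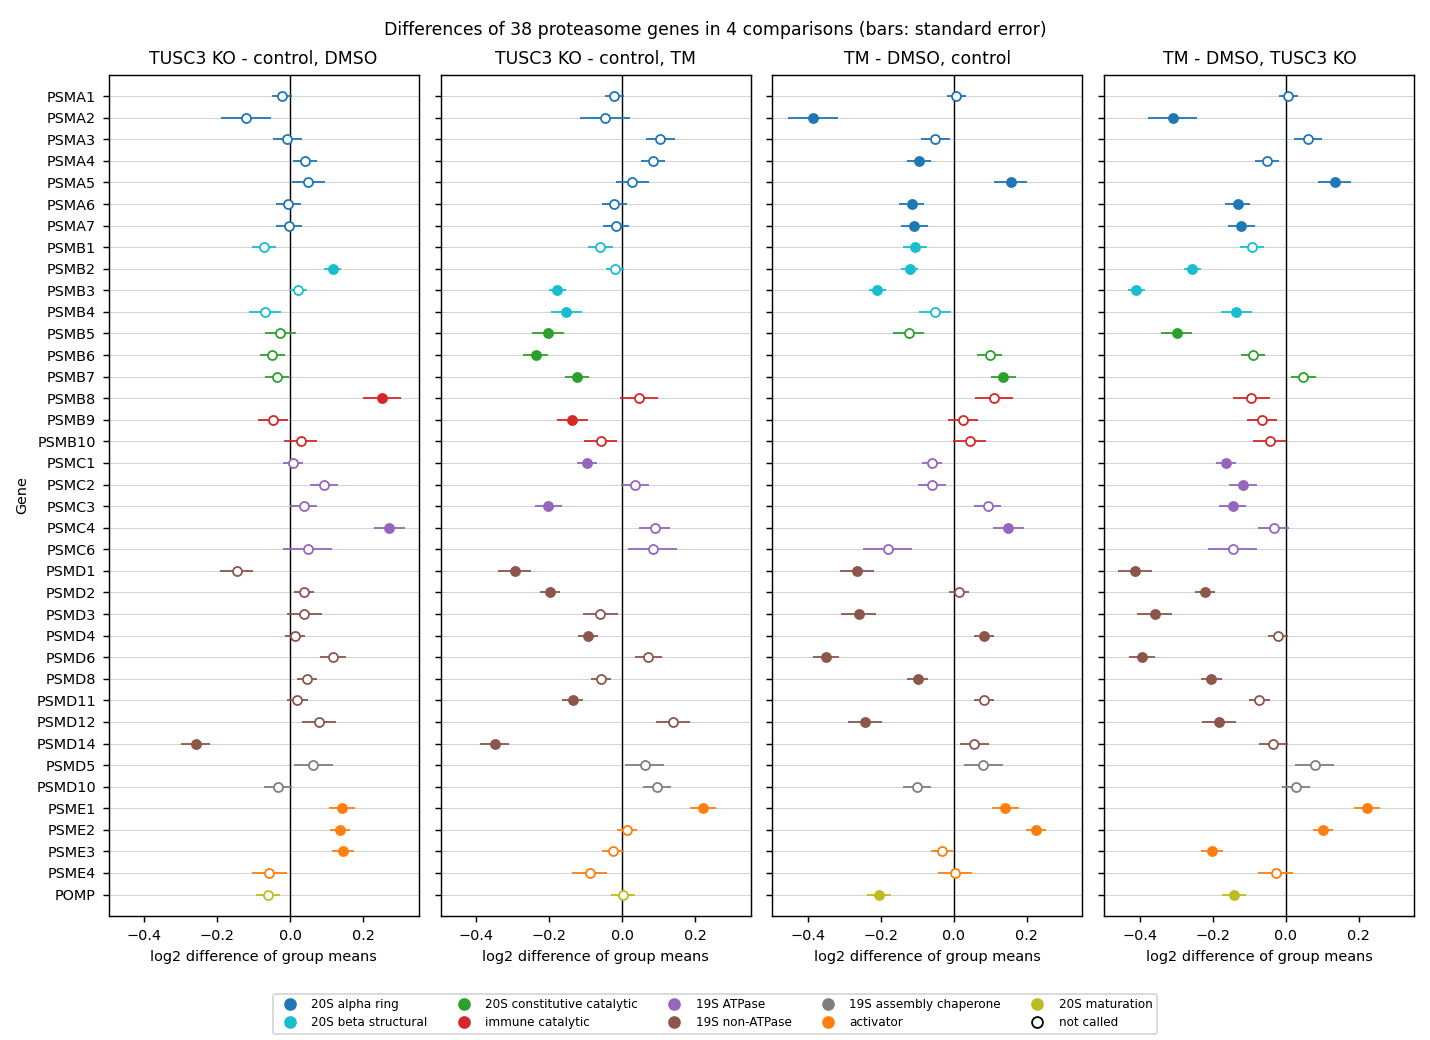
Log2 difference of group means (horizontal axis) for each of the 38 measured genes (vertical axis) in 4 comparisons, with the standard error from the limma fit as bars, colour for the subcomplex and open points for genes that were not called. Most points lie within 0.3 of 0. Under TM the filled points of the knockout comparison lie mostly left of 0, and in both TM comparisons the activator genes PSME1 and PSME2 lie right of 0.

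PSMD14 encodes the deubiquitinase of the 19S lid, which cuts ubiquitin chains off a substrate before it is degraded. Its level was 8.50, 8.43 and 8.47 in control cells under DMSO, 8.51, 8.51 and 8.55 in control cells under TM, 8.25, 8.15 and 8.22 in TUSC3 KO cells under DMSO and 8.19, 8.10 and 8.24 in TUSC3 KO cells under TM. The 6 arrays of TUSC3 KO cells lay below the 6 of control cells with no overlap. The log2 difference was -0.26 under DMSO (SE 0.040, limma adjusted p = 0.001) and -0.35 under TM (SE 0.040, adjusted p = 8.2e-05). PSMD14 was the member called lower in both genotype comparisons, and TM itself gave -0.03 and 0.06 in the TUSC3 KO and the control cells, neither called.

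PSMC4, an ATPase of the 19S base, was at 9.85, 9.84 and 9.92 in control cells and 10.12, 10.14 and 10.15 in TUSC3 KO cells under DMSO. Its groups did not overlap, and the difference of 0.27 (SE 0.042, limma adjusted p = 0.0011) was a 1.21-fold higher level. Under TM the levels were 10.05, 10.09 and 9.92 in control cells and 10.09, 10.16 and 10.07 in TUSC3 KO cells. These overlapped, with a difference of 0.09 (adjusted p = 0.2). In control cells PSMC4 rose with TM by 0.15 (adjusted p = 0.023), although the lowest TM array was at the level of the highest DMSO array, and this call was lost without replicate 1 or 2 of the control cells under either treatment (adjusted p up to 0.099 over the 12 fits that each left out 1 array).

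PSMB2, a structural subunit of the beta ring, was at 7.08 in all 3 control arrays under DMSO and at 7.21, 7.19 and 7.20 in TUSC3 KO cells (difference 0.12, SE 0.024, limma adjusted p = 0.0067). After TM it was at 6.95, 6.98 and 6.96 in control cells and 6.95, 6.94 and 6.95 in TUSC3 KO cells, where the genotypes overlapped. PSME3, which forms the nuclear activator PA28 gamma, was at 9.83, 9.75 and 9.83 in control cells and 9.96, 9.90 and 9.98 in TUSC3 KO cells under DMSO (difference 0.14, SE 0.031, adjusted p = 0.0091). Its levels under TM were 9.80, 9.77 and 9.74 in control cells and 9.76, 9.71 and 9.76 in TUSC3 KO cells. Both genes stood higher in the knockout under DMSO, and under TM each differed by -0.02 (adjusted p = 0.66 for both).

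The 3 immune subunits and the 3 constitutive subunits they replace did not shift as a block under DMSO. PSMB8, which takes the place of PSMB5, was at 5.50, 5.59 and 5.70 in control cells and 5.81, 5.88 and 5.86 in TUSC3 KO cells. All knockout arrays were above all control arrays, although the control arrays were spread over most of the gap between the means. The difference was 0.25 (SE 0.052, limma adjusted p = 0.0069), a 1.19-fold higher level. PSMB8 had 8 features, 1 on chromosome 6 and the others on alternative copies of that region, and the difference ran from 0.235 to 0.261 over them. The feature used, the brightest, lies on an alternative copy. Under TM, PSMB8 was at 5.71 in all 3 control arrays and at 5.71, 5.83 and 5.72 in TUSC3 KO cells (difference 0.05, adjusted p = 0.61). The deposited value was identical in those 3 control arrays, which gives them an SD of 0, and in TUSC3 KO TM replicate 1. Such ties were not particular to PSMB8: up to 4.77% of features had identical values in a pair of arrays. Their part in the small spreads of other members was not tested.

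PSMB9 and PSMB10 did not follow PSMB8. PSMB9, the partner of PSMB6, was at 5.73, 5.75 and 5.79 in control cells and 5.70, 5.69 and 5.75 in TUSC3 KO cells under DMSO (difference -0.05, limma adjusted p = 0.66). Under TM it was at 5.82, 5.77 and 5.75 in control cells and 5.69, 5.69 and 5.56 in TUSC3 KO cells. That difference of -0.14 passed the test narrowly (SE 0.042, adjusted p = 0.045) and was lost in 10 of the 12 fits that left out 1 array, all but those without TUSC3 KO TM replicate 1 or 2 (adjusted p up to 0.16). PSMB10, the partner of PSMB7, lay between 6.30 and 6.50 on all arrays and was called in no comparison.

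**Figure D2:**
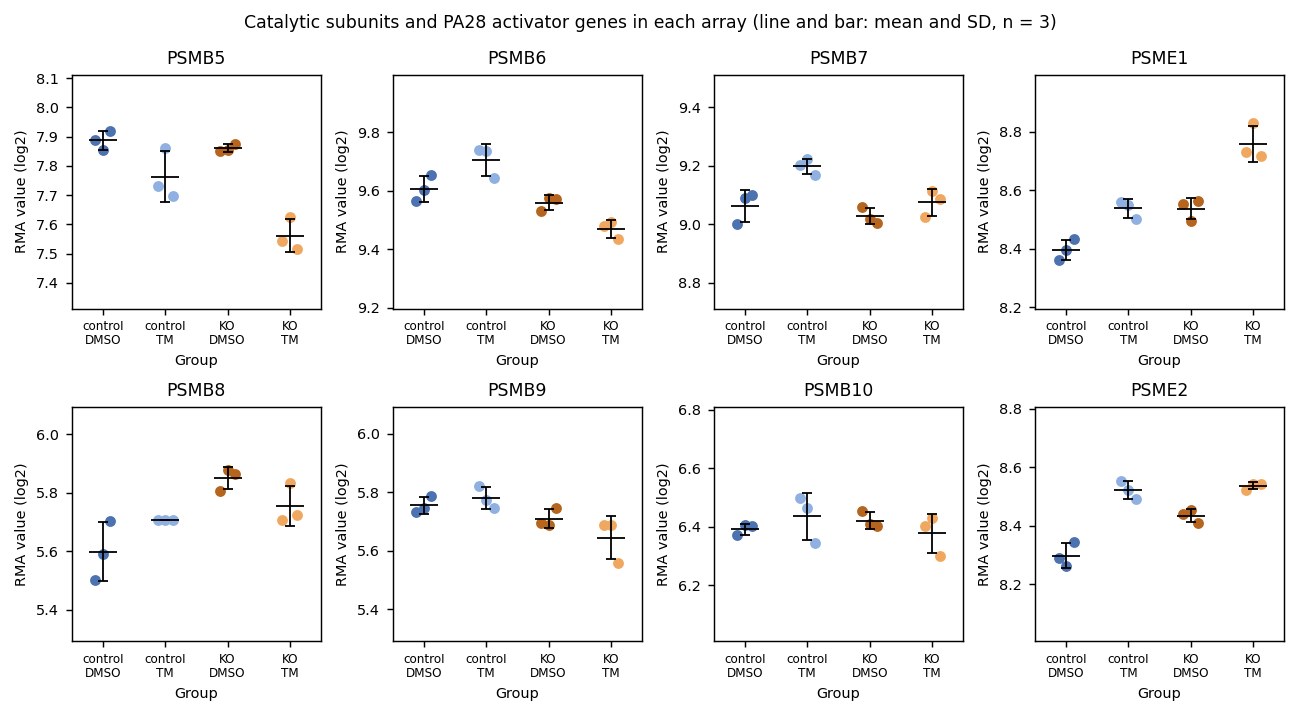
RMA level (log2, vertical axis) of the 3 constitutive catalytic genes, the 3 immune catalytic genes and both PA28 genes in each array by group (horizontal axis), with the mean and SD of 3 arrays in black. PSMB8 separates the genotypes under DMSO, PSMB5 and PSMB6 are lowest in TUSC3 KO cells under TM, and PSME1 is highest there.

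Under TM, the 3 constitutive catalytic genes were all lower in TUSC3 KO cells. PSMB5, the chymotrypsin-like site and the main target of proteasome inhibitor drugs, was at 7.89, 7.85 and 7.92 in control cells and 7.85, 7.86 and 7.88 in TUSC3 KO cells under DMSO. With TM it was at 7.73, 7.86 and 7.70 in control cells and 7.54, 7.62 and 7.52 in TUSC3 KO cells. The TM arrays of the knockout lay below every other array. The difference between genotypes was -0.03 under DMSO (limma adjusted p = 0.86) and -0.20 under TM (SE 0.043, adjusted p = 0.0066).

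PSMB6, the caspase-like site, was at 9.57, 9.60 and 9.65 in control cells and 9.53, 9.58 and 9.57 in TUSC3 KO cells under DMSO. Under TM the values were 9.74, 9.73 and 9.64 in control cells and 9.48, 9.49 and 9.44 in TUSC3 KO cells, which did not overlap (difference -0.24, SE 0.033, limma adjusted p = 0.00041). PSMB7, the trypsin-like site, was at 9.00, 9.09 and 9.10 in control cells and 9.06, 9.02 and 9.00 in TUSC3 KO cells under DMSO. It was at 9.20, 9.22 and 9.17 in control cells and 9.02, 9.11 and 9.08 in TUSC3 KO cells under TM (difference -0.12, SE 0.034, adjusted p = 0.028). In control cells PSMB7 rose with TM by 0.13 (adjusted p = 0.012, and 0.051 without control TM replicate 2). The genotype call of PSMB7 was lost without replicate 1 or 2 of the control TM arrays or replicate 1 or 3 of the TUSC3 KO TM arrays (adjusted p up to 0.10).

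Set against each other, the immune genes minus the constitutive genes moved by 0.115 on the log2 scale with TUSC3 KO under DMSO and by 0.138 under TM, where the arrays within a group varied with an SD of 0.0275. Relative to the mean of control cells under DMSO, this mean difference was 0.110, 0.112 and 0.123 in TUSC3 KO cells under DMSO and 0.187, 0.177 and 0.120 under TM. The control arrays ran from -0.0128 to 0.0108 under DMSO and from -0.0203 to 0.0549 under TM, below all TUSC3 KO arrays. The parts of the score differed between the treatments. With the knockout under DMSO the immune mean changed by 0.0781 and the constitutive mean by -0.0368. Under TM both means were lower in the knockout, the immune mean by -0.0490 and the constitutive mean by -0.187. No test is given for this score or its parts over members. The pairs were unequal: PSMB8 minus PSMB5 moved by 0.278 and 0.249 with the knockout under DMSO and TM, PSMB9 minus PSMB6 by 0.00216 and 0.101, and PSMB10 minus PSMB7 by 0.0648 and 0.0649. With TM the same score moved by 0.0228 in control cells and 0.0462 in TUSC3 KO cells, and the value in control cells changed sign, to -0.0164, when the arrays were quantile normalized again.

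Across all members, the calls with TUSC3 KO under TM were mostly lower: 13 of 38 genes were lower (34.2%) and 1 was higher (2.63%). Over all genes tested, 7.97% were lower, 8.99% higher and 17.0% called in either direction. By sign alone, 24 members lay below 0 and 14 above, against 13187 and 9216 of all genes. All members were brighter than the median feature, and among the 15589 genes that bright, refitted alone, 11.6% were lower. The members ranged from -0.35 to 0.22, with a median of -0.04 against -0.02 over all genes. The lower genes were the 3 constitutive catalytic genes, PSMB3 and PSMB4 of the beta ring, PSMC1 and PSMC3 of the ATPase ring, PSMD1, PSMD2, PSMD4, PSMD11 and PSMD14 of the cap, and PSMB9. None of the 7 alpha ring genes was called in either direction. The count of called members fell from 14 to 9 without control TM replicate 2 and to 8 when the TM arrays were fitted alone.

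PSMD1, the large scaffold subunit of the 19S base, was at 8.84, 8.74 and 8.90 in control cells and 8.66, 8.69 and 8.69 in TUSC3 KO cells under DMSO. Under TM it was at 8.53, 8.54 and 8.61 in control cells and 8.19, 8.27 and 8.34 in TUSC3 KO cells. The 4 groups formed 4 steps with no overlap between control and TUSC3 KO within a treatment. The knockout difference was -0.15 under DMSO (limma adjusted p = 0.062) and -0.29 under TM (SE 0.046, adjusted p = 0.00084). PSMD2, the other large scaffold of the base, was at 8.38, 8.37 and 8.43 in control cells and 8.41, 8.46 and 8.43 in TUSC3 KO cells under DMSO. Under TM it was at 8.41, 8.40 and 8.41 in control cells and 8.19, 8.20 and 8.24 in TUSC3 KO cells (difference -0.20, adjusted p = 0.00034). PSMD2 was thus low only in the 3 TUSC3 KO arrays under TM.

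PSMC3, another ATPase of the base, was at 7.82, 7.92 and 7.94 in control cells and 7.94, 7.91 and 7.94 in TUSC3 KO cells under DMSO. Under TM the levels were 8.03, 7.98 and 7.95 in control cells and 7.77, 7.84 and 7.74 in TUSC3 KO cells, a difference of -0.20 (limma adjusted p = 0.0029). PSMB3, a structural beta ring subunit, was at 10.85, 10.89 and 10.91 in control cells and 10.89, 10.89 and 10.94 in TUSC3 KO cells under DMSO. With TM it was at 10.68, 10.65 and 10.69 in control cells and 10.50, 10.50 and 10.49 in TUSC3 KO cells (difference -0.18, adjusted p = 0.00024). Both genes had overlapping genotypes under DMSO and separate ones under TM.

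**Figure D3:**
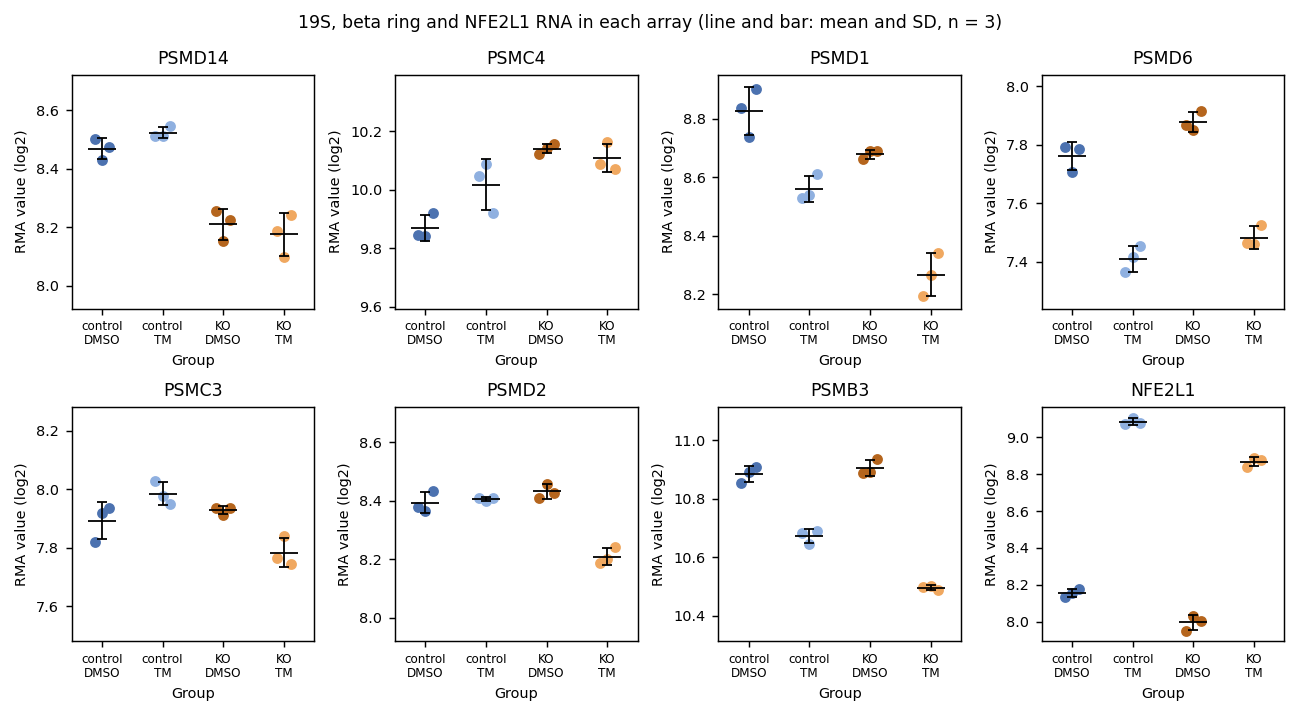
RMA level (log2, vertical axis) in each array by group (horizontal axis) for 6 genes of the 19S cap, for PSMB3 of the beta ring and for the transcription factor gene NFE2L1, with the mean and SD of 3 arrays in black. PSMD14 separates the genotypes under both treatments, PSMD6 separates the treatments in both genotypes, and PSMD2 is low only in TUSC3 KO cells under TM, and NFE2L1 is high in both TM groups.

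PSME1 was the 1 member higher in TUSC3 KO cells under both treatments. It encodes PA28 alpha, which together with PA28 beta opens the 20S core to peptides and serves antigen processing. Its level was 8.36, 8.40 and 8.43 in control cells and 8.55, 8.50 and 8.57 in TUSC3 KO cells under DMSO. Under TM it was 8.56, 8.55 and 8.50 in control cells and 8.73, 8.83 and 8.72 in TUSC3 KO cells. The knockout difference was 0.14 under DMSO (SE 0.036, limma adjusted p = 0.023) and 0.22 under TM (SE 0.036, adjusted p = 0.0011). The call under DMSO was lost without control replicate 1 or 2 or TUSC3 KO replicate 1 or 3 (adjusted p up to 0.096) and after a second quantile normalization (0.051).

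PSME2, the PA28 beta gene, was at 8.29, 8.26 and 8.34 in control cells and 8.44, 8.46 and 8.41 in TUSC3 KO cells under DMSO. It was at 8.55, 8.52 and 8.49 in control cells and 8.52, 8.54 and 8.54 in TUSC3 KO cells under TM. The knockout difference of 0.14 under DMSO (SE 0.028, limma adjusted p = 0.0075) was 0.01 under TM (adjusted p = 0.81). The genotypes were apart under DMSO and overlapped under TM. PSME4, the gene of the activator PA200, was called in no comparison.

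TM against DMSO asked what ER stress did to the same genes within each genotype. In control cells 13 of 38 members fell (34.2%) and 6 rose (15.8%), against 13.6% lower, 11.2% higher and 24.8% in either direction over all genes tested. In TUSC3 KO cells 18 fell (47.4%) and 3 rose (7.89%), against 14.9%, 12.5% and 27.4%. Among the brighter genes refitted alone, 19.4% fell in control cells and 21.5% in TUSC3 KO cells, and 15.5% and 17.0% rose. The share of members that rose in control cells was thus near that of the brighter genes. The differences ran from -0.39 to 0.22 in control cells and from -0.41 to 0.22 in TUSC3 KO cells, and the largest, in PSMD1, was a 1.33-fold lower level. The split depended on the scaling: after a second quantile normalization 8 members fell and 10 rose in control cells, and 14 fell and 4 rose in TUSC3 KO cells.

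The genes that fell in both genotypes were PSMA2, PSMA6 and PSMA7 of the alpha ring, PSMB2 and PSMB3 of the beta ring, PSMD1, PSMD3, PSMD6, PSMD8 and PSMD12 of the cap, and POMP, the chaperone that matures the core. This is 11 genes, of 13 in control cells and of 18 in TUSC3 KO cells, in the values as deposited. The overlap was not counted over all genes, so whether it is particular to the members was not tested. The 3 that rose in both were PSME1, PSME2 and PSMA5. None of the 3 immune genes was called with TM in either genotype, and of the 3 constitutive catalytic genes PSMB7 rose in control cells and PSMB5 fell in TUSC3 KO cells.

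PSMD6, a subunit of the 19S lid, was at 7.79, 7.71 and 7.79 under DMSO and 7.36, 7.41 and 7.45 under TM in control cells. In TUSC3 KO cells it was at 7.87, 7.85 and 7.92 under DMSO and 7.46, 7.46 and 7.53 under TM. The treatments were far apart and the 3 arrays of each group close together. The change was -0.35 in control cells (SE 0.036, limma adjusted p = 1.7e-05) and -0.39 in TUSC3 KO cells (SE 0.036, adjusted p = 5.7e-06). PSMD3, also of the lid, was at 8.31, 8.38 and 8.43 under DMSO and 8.16, 8.15 and 8.03 under TM in control cells, and at 8.38, 8.42 and 8.44 and then 7.96, 8.12 and 8.08 in TUSC3 KO cells. Its change was -0.26 (adjusted p = 0.0015) and -0.36 (adjusted p = 0.00013).

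PSMA2, an alpha ring subunit, had the largest fall in control cells, from 8.19, 8.17 and 8.16 under DMSO to 7.66, 7.95 and 7.76 under TM (-0.39, SE 0.068, limma adjusted p = 0.0012). In the knockout it went from 8.09, 7.99 and 8.09 to 7.85, 7.67 and 7.71 (-0.31, adjusted p = 0.0046). Its TM arrays were spread more widely than those of PSMD6. PSMB3 and PSMD1, given above by array, fell by 0.21 (adjusted p = 3e-05) and 0.26 (adjusted p = 0.001) in control cells and by 0.41 (adjusted p = 1.1e-07) and 0.41 (adjusted p = 3e-05) in TUSC3 KO cells.

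Of the genes that rose, PSME2 changed by 0.22 in control cells (SE 0.028, limma adjusted p = 8.9e-05) and by 0.10 in TUSC3 KO cells (SE 0.028, adjusted p = 0.019). PSME1 changed by 0.14 (adjusted p = 0.012) and 0.22 (adjusted p = 0.00056). Neither gene's change differed between the genotypes by the test of the interaction (adjusted p = 0.097 and 0.45). PSMA5, an alpha ring subunit, was at 6.93, 6.96 and 7.00 under DMSO and 7.10, 7.13 and 7.12 under TM in control cells (0.16, adjusted p = 0.026). In TUSC3 KO cells it was at 7.03, 6.99 and 7.02 and then 7.11, 7.07 and 7.27 (0.13, adjusted p = 0.049).

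Some of these calls rested on single arrays. The PSMA5 call was lost in 5 of the 12 fits with 1 array left out in control cells (without any control TM array, or control DMSO replicate 1 or 2; adjusted p up to 0.092). In the knockout it was lost in 11, all but that without TUSC3 KO TM replicate 2 (adjusted p up to 0.15). PSME1 lost its call in control cells without control DMSO replicate 1 (adjusted p = 0.051), and PSME2 its call in TUSC3 KO cells without TUSC3 KO DMSO replicate 3 (adjusted p = 0.081). The count of members called in control cells was 19 with all arrays, and 12, 12 and 11 without control DMSO replicate 1, control TM replicate 1 and control TM replicate 2.

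**Figure D4:**
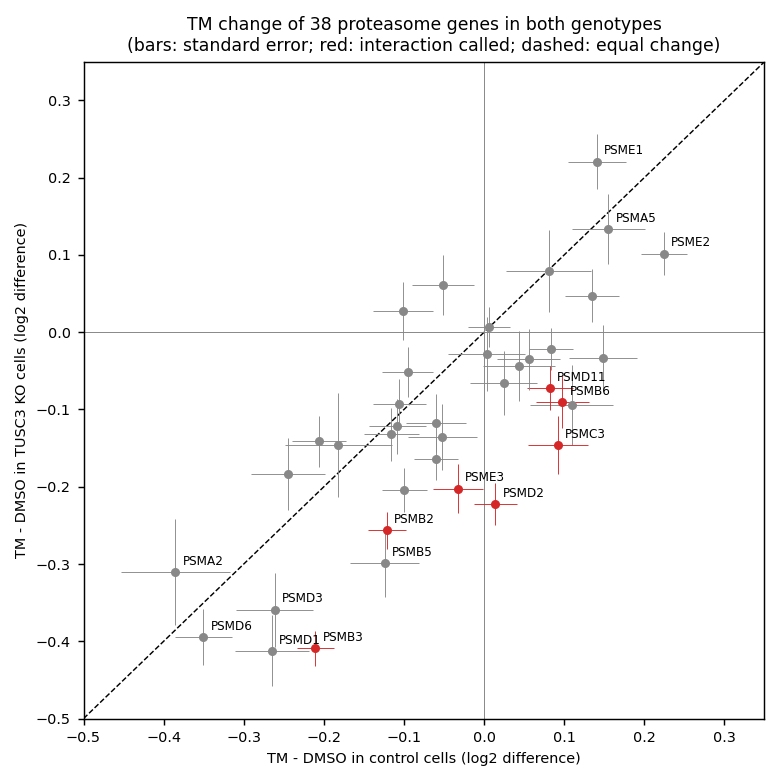
Log2 change with TM in control cells (horizontal axis) and in TUSC3 KO cells (vertical axis) for the 38 genes, with standard errors as bars, a dashed line of equal change and red for genes whose change differed between the genotypes. The 7 red genes all lie below the dashed line, and PSMD6, PSMD1 and PSMB3 lie lowest.

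Whether TM acted differently in the knockout was tested by the interaction, the change with TM in TUSC3 KO cells minus that in control cells. The interaction was called below 0 for 7 of 38 members (18.4%) and called above 0 for none. Over all genes tested, 3.73% were called below, 4.18% above and 7.91% in either direction. Among the brighter genes refitted alone, 5.84% were called below. By sign alone, called or not, 28 members lay below 0 and 10 above. Over all 22411 genes, 13364 lay below 0 and 9047 above. PSMC3 and PSMD2 had the largest interactions, both -0.24 (limma adjusted p = 0.018 and 0.0031), and both had been called in TUSC3 KO cells only: PSMD2 changed by 0.01 in control cells and -0.22 in TUSC3 KO cells, and PSMC3 by 0.09 and -0.15. PSMB3 followed at -0.20 (adjusted p = 0.0035), PSMB6 at -0.19 (adjusted p = 0.032), PSME3 at -0.17 (adjusted p = 0.038), PSMD11 at -0.15 (adjusted p = 0.038) and PSMB2 at -0.14 (adjusted p = 0.031). PSMD11, a lid subunit, was at 9.43, 9.37 and 9.46 under DMSO and 9.50, 9.49 and 9.51 under TM in control cells, and at 9.46, 9.41 and 9.45 and then 9.34, 9.36 and 9.40 in TUSC3 KO cells. Since PSMB2 and PSME3 were higher in the knockout under DMSO and not called under TM, their interaction and their difference under DMSO share the same arrays and are not separate evidence. In the same way, PSMB3, PSMB6, PSMC3, PSMD2 and PSMD11 were lower in the knockout under TM and not called under DMSO. Their interaction and their difference under TM share arrays and are not separate evidence either. The other genes called between the genotypes under 1 treatment only had no called interaction. For PSMC4, PSMB8, PSMB5 and PSMB7 its limma adjusted p was 0.099, 0.13, 0.12 and 0.37. For PSME2, PSMB4, PSMB9, PSMC1, PSMD1 and PSMD4 it was 0.097, 0.52, 0.47, 0.16, 0.24 and 0.15. A knockout difference that depends on TM was not shown for any of these genes. The median interaction of the members was -0.09, against -0.03 over all genes.

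These interaction calls were sensitive to single arrays. The count was 2 without control TM replicate 1 or TUSC3 KO DMSO replicate 3, 3 without control TM replicate 2 or TUSC3 KO TM replicate 1, and 4 without control DMSO replicate 1 or 2 or TUSC3 KO DMSO replicate 1. PSMB3 and PSMD2 kept their call in all 12 such fits. PSMC3 lost it in 2 (adjusted p up to 0.052), PSMB6 and PSME3 in 8 each (up to 0.088 and 0.10), and PSMB2 and PSMD11 in 9 each (up to 0.09 and 0.098).

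By subcomplex, the mean over the 4 structural beta ring genes changed with TM by -0.122 in control cells and -0.224 in TUSC3 KO cells, and that over the 9 non-ATPase cap genes by -0.109 and -0.212. The 5 ATPase genes had a mean change of -0.0123 and -0.121, the 7 alpha ring genes of -0.0849 and -0.0590, and the 4 activator genes of 0.0840 and 0.0231 (-0.0123 became 0.0247 after a second quantile normalization). With TUSC3 KO under DMSO the largest means were those of the ATPase genes, 0.0916, and the activator genes, 0.0914, and under TM the lowest was that of the constitutive catalytic genes, -0.187. All measured members together changed by 0.0209 and -0.0468 with the knockout under DMSO and TM, and by -0.0457 and -0.113 with TM in control and TUSC3 KO cells. The subcomplexes thus did not move as 1 unit. Of the 7 groups of genes plotted, the alpha ring was the one whose mean TM change was less negative in the knockout than in control cells. That difference, 0.0259, was smaller than the SD of 0.0319 between arrays within a group, so it does not set the alpha ring apart. No test is given for these means over members.

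**Figure D5:**
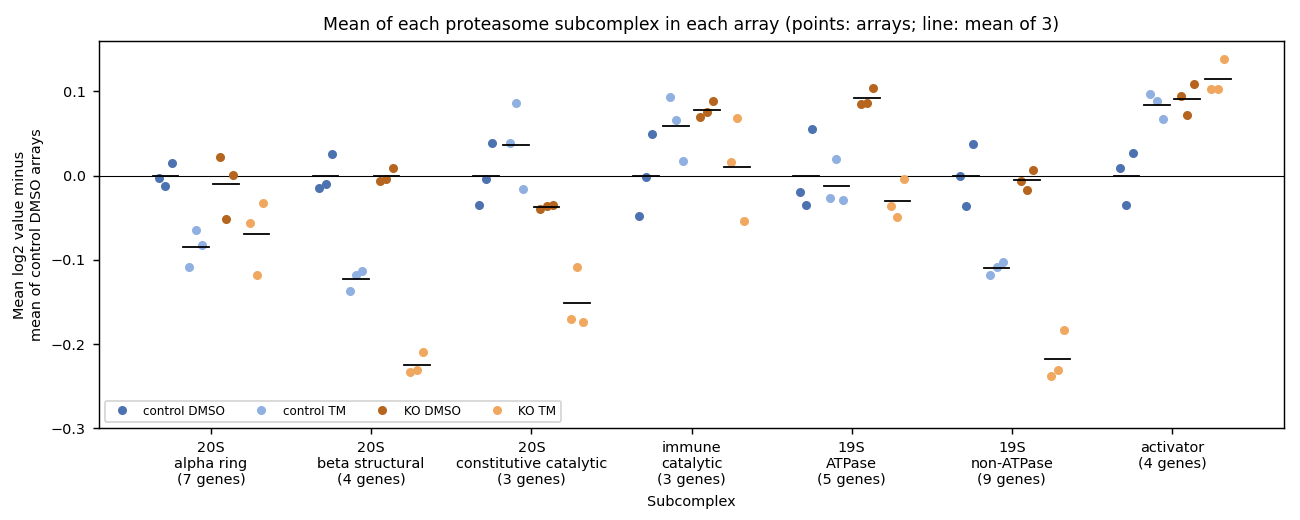
Mean log2 value of the measured genes of each subcomplex in each array, minus the mean of the control DMSO arrays (vertical axis), by subcomplex and group (horizontal axis); points are arrays and lines the mean of 3 arrays. In TUSC3 KO cells under TM the structural beta ring and non-ATPase cap genes lie lowest, near -0.22, and the activator genes lie above 0 in every group but control DMSO.

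Other genes of the same route were set beside the members. NFE2L1 encodes the ER-anchored transcription factor that raises proteasome genes when proteasome activity falls. Its level was 8.14, 8.15 and 8.18 under DMSO and 9.07, 9.11 and 9.08 under TM in control cells, and 7.95, 8.03 and 8.01 and then 8.84, 8.89 and 8.88 in TUSC3 KO cells. It rose by 0.93 (limma adjusted p = 6.4e-10) and 0.87 (adjusted p = 1.2e-09), more than any of the 38 members, and was lower in TUSC3 KO cells under both treatments (-0.16 and -0.22). Its relative NFE2L2, the oxidative stress factor, rose by 0.25 and 0.45 and was lower in TUSC3 KO cells by -0.39 under DMSO and -0.19 under TM. Of the 6 genes tested of this route, 3 rose with TM in each genotype and none fell, where 11.2% and 12.5% of all genes rose in control and TUSC3 KO cells. The median change was 0.21 and 0.18, against 0.03 and -0.01 over all genes. The third was MAFG, a partner of both factors, in control cells (0.28), and NGLY1, the enzyme that strips glycans from proteins leaving the ER, in TUSC3 KO cells (0.25).

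Among 8 proteasome assembly factors outside the members, ECPAS, an adaptor and scaffold of the proteasome, rose with TM by 0.53 and 0.37, PSMG2, a chaperone of the alpha ring, fell (-0.27 and -0.23), and no gene was called between the genotypes. These 2 of 8 called with TM compare with 24.8% and 27.4% of all genes. Of 14 inhibitor, receptor and deubiquitinase genes, 3 rose and 2 fell with TM in control cells, and 4 rose and 7 fell in TUSC3 KO cells, against 24.8% and 27.4% of all genes called in either direction and 34.8% and 38.5% of the brighter genes refitted alone. The count in control cells was near that of the brighter genes. ZFAND2A, a proteasome-associated stress protein, rose by 0.73 and 0.79. The inhibitor gene PSMF1 rose by 0.22 and 0.13, and USP14, a deubiquitinase of the cap, fell (-0.18 in both genotypes). Between the genotypes 2 of the 14 were higher and 1 lower under DMSO, and 1 was higher and 1 lower under TM, the latter being the ubiquitin receptor ADRM1 (-0.19). Over all genes, 12.7% were called between the genotypes under DMSO and 17.0% under TM. Among the brighter genes refitted alone the shares were 18.3% and 24.3%. The genotype counts of the 14 were not above what these shares give by more than a gene or so. The tissue-restricted core genes PSMA8 and PSMB11 lay below the median feature, with means of 2.65 and 4.66, and were called in no comparison.

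Of 7 ubiquitin and conjugation genes, 1 rose and 2 fell with TM in control cells and 1 rose and 1 fell in TUSC3 KO cells, and 2 were higher and none lower in the knockout under each treatment. With TM, 24.8% of all genes were called in control cells and 27.4% in TUSC3 KO cells, and between the genotypes 12.7% under DMSO and 17.0% under TM. UBE2J1, the conjugating enzyme at the ER membrane, rose by 0.67 and 0.82. Of 11 genes of VCP and its cofactors, which pull proteins out of the ER, 2 rose in control cells and 3 rose and 1 fell in TUSC3 KO cells, and 2 were higher and 1 lower in the knockout under each treatment, to be read against the same shares. VCP rose with TM by 0.21 and 0.15 and was higher in TUSC3 KO cells by 0.28 under DMSO and 0.22 under TM.

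Genes of class I peptide loading and of the factors that induce the immune subunits were tested as neighbours of PSMB8 and PSME1. Of 12 tested, 5 were higher and none lower in the knockout under DMSO, and 6 were higher and none lower under TM, where 6.58% and 8.99% of all genes were higher. The median difference was 0.14 under DMSO and 0.13 under TM, against 0.01 and -0.02 over all genes. B2M, the light chain of class I molecules, was higher by 0.35 and 0.51, and ERAP1, which trims peptides in the ER, by 0.23 and 0.27. IRF1, an inducer of the immune subunits, was higher under DMSO by 0.14. With TM 4 rose and 2 fell in control cells and 3 rose and 2 fell in TUSC3 KO cells, against 24.8% and 27.4% of all genes called. ERAP1 rose by 1.08 and 1.12, while B2M fell (-0.34 and -0.18).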

How the data were processed

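Affymetrix Human Transcriptome Array 2.0 data of 12 total RNA samples of A549 cells were analysed. The sources used here do not say whether arrays of 1 group came from separate cultures, so p-values measure the spread between these arrays, which may be technical. The deposited values are log2 levels made by the authors with RMA (background correction, quantile normalization and probe summary; version and build not given in the sources used here). They were used as deposited, 70523 features between 0.721 and 13.9, with array medians of 4.73 to 4.80. Features were named through the GEO platform annotation: 23781 had 1 symbol, 1543 several and 45199 none, and 306 symbols were updated. The brightest feature was kept per symbol (528 symbols had several). The number of arrays limits the precision.

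Group means of all 12 arrays were fitted in limma 3.58.1 (R 4.3.3) with a variance trend, giving 5 two-sided comparisons, adjusted by Benjamini-Hochberg over 22411 symbols and called at an adjusted p under 0.05. Exact permutation of 3 against 3 arrays cannot go below p = 0.1 and was not used. On simulated data of the comparison under DMSO (22411 genes), 22 of 50 genes changed by 0.25 were recovered, 40 of 50 at 0.5, and 13 of 22211 unchanged genes were called. Members and lists were chosen with earlier results of these data known. Values by array are given for the catalytic pairs, PSME1, PSME2 and up to 4 called members each way per comparison; PSMD11, PSMB2 and PSME3 also carried interaction calls. Alternatives were a second quantile normalization, no trend, dim genes left out, the compared groups alone, a replicate block, the methods' t-test and leaving out each array.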

Additional observations from a re-analysis of the deposited data

Results flagged for a closer look

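For 7 members the change with TM differed between TUSC3 KO and control cells by the interaction term of the limma fit. The interaction was -0.24 for PSMC3, -0.24 for PSMD2, -0.20 for PSMB3, -0.19 for PSMB6, -0.17 for PSME3, -0.15 for PSMD11 and -0.14 for PSMB2, in each case a more negative log2 change with TM in the knockout cells than in control cells. PSMD2 and PSMB3 kept the call when any 1 array was left out. The other 5 lost it in 2 to 9 of the 12 such fits.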

How the results depend on the processing

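No named member reversed a call under the alternatives run. Counts were compared only by their total and means only by the size of their shift, so neither could be scored as reversed. With TM in control cells, a second quantile normalization turned more falls than rises into more rises than falls, as given above. The means that changed sign, given below, carried no test. With the methods' t-test after Benjamini-Hochberg the members called were 3 under DMSO and 6 under TM between the genotypes and 11 with TM in control cells, against 7, 14 and 19; unadjusted at the methods' threshold, 11 were called between the genotypes under DMSO. Fitting the compared groups alone called 8 between the genotypes under TM, and a fit with no variance trend gave 4 interactions. Leaving out 1 array at a time gave 6 to 9 members between the genotypes under DMSO, 9 to 14 under TM, 11 to 20 with TM in control cells, 16 to 20 in TUSC3 KO cells and 2 to 6 interactions. Under TM the lowest count, 9, came without control TM replicate 2.

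A second quantile normalization moved the mean TM change in control cells to -0.0405 for the alpha ring, -0.107 for the structural beta ring, 0.0801 for the constitutive catalytic genes, 0.0247 for the ATPase genes, -0.0673 for the non-ATPase genes, 0.134 for the activator genes and -0.00782 for all members, and the immune minus constitutive score to -0.0164. In TUSC3 KO cells it gave -0.196 for the structural beta ring, -0.185 for the non-ATPase genes, 0.0524 for the activator genes and -0.0867 for all members. The cause was not tested.

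The replicate numbers paired the arrays only in part. Of 18 correlations between same-numbered arrays, 9 were above 0.1 (median 0.114, from -0.0981 to 0.386). The 36 correlations between differently numbered arrays had a median of -0.0489 (from -0.482 to 0.321). Of the 12 arrays, 7 correlated best with their own number. An effect shared by arrays of 1 number was not excluded. With the replicate number as a block, 9 and 15 members were called between the genotypes under DMSO and TM, 21 and 21 with TM in control and TUSC3 KO cells, and 7 interactions. Of 454 values of named members under alternatives other than leaving out 1 array, 423 kept their side of the threshold, 27 lost the call and 4 gained it. On simulated data 22 of 50 changes of 0.25 were recovered, which is not a recovery rate for the members. The simulation left 22211 of 22411 genes unchanged, where 2844 were called in the arrays under DMSO. It drew from all genes, whose median SE was 0.0521, against 0.0368 for the members. Small differences of members can still be missed with 3 arrays per group.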
